A study of Homo sapiens with 2 samples.

Results

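Solute carriers are membrane proteins that move amino acids, sugars, ions, vitamins and metabolites across the cell surface and the membranes of organelles, and their genes are numbered by family. The genes described here are those of families 1 to 24. They were taken by symbol, as SLC with a family number from 1 to 24, a letter and a number. They came to 74 of the 12494 gene names in a table of expression values. SLC2A1, SLC2A3, SLC3A2, SLC7A11, SLC11A2, SLC16A1 and SLC16A3 were not part of the set, and antisense names were left out. The compared groups were 1 library of cisplatin-resistant SBC5 cells and 1 library of parental SBC5 cells. SBC5 is an established human small cell lung cancer cell line, and cisplatin is a platinum compound that links DNA strands. Resistant cells were derived from parental cells by growth in cisplatin at 1, 2, 4 and then 20 µg/ml, and cells of both groups were kept in RPMI medium with 10% fetal bovine serum. Whether the resistant cells were a clone or a pool, and whether drug was present at harvest, is not given in the sources used here. With 1 library per group there is no replicate check on any difference given, and no test was made.

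Values are FPKM (fragment numbers adjusted for locus length and library size), so levels can be set side by side between genes. The table held 19217 loci, whose FPKM summed to 1081047 in the resistant and 1019555 in the parental library. The number of reads behind a value is unknown. In bulk RNA, fewer cells that express a gene and less RNA per cell cannot be told apart. Of the markers of this cancer, YAP1 had 84.7 FPKM in resistant and 76.6 FPKM in parental cells. The synaptic vesicle gene SYP had 8.62 FPKM in resistant and 8.56 FPKM in parental cells, and the adhesion gene NCAM1 had 1.64 and 0.821 FPKM in the same order. Of the epithelial markers, CDH1 had 4.81 FPKM in resistant and 0.536 FPKM in parental cells (log2 ratio 1.92), and KRT8 had 2.36 and 2.09 FPKM in the same order. The summed level of the 2 of 4 listed epithelial markers was 7.17 FPKM in resistant and 2.63 FPKM in parental cells, and their part in the differences described was not tested. Fibroblast markers came to 3.85 FPKM in resistant and 2.34 FPKM in parental cells, all from COL1A1, which was 1 of 5 listed. The other 4, and the 5 listed haematopoietic and 4 endothelial markers, were not analysed here.

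Solute carriers do not burn ATP themselves. Many couple a solute to the inward gradient of sodium, which the sodium pump maintains, or to protons, while others exchange solutes or let them pass down their gradient. Amino acid carriers of families 1, 3, 6 and 7 feed protein and nucleotide synthesis, families 2 and 5 hold carriers of hexoses and of inositol, and families 4 and 9 set the pH of the cell and of its organelles. Family 12 moves chloride with sodium or potassium and so sets cell volume, family 16 moves lactate and other monocarboxylates, and family 22 carries organic cations, anions and carnitine. Members of family 22 are studied in other tissues as carriers of drugs.

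A member was compared where it had at least 1 FPKM in either library, which held for 73 of the 74. SLC22A18 was the exception, at 0.131 FPKM in resistant and 0.264 FPKM in parental cells. Ratios are of resistant to parental values on the log2 scale, with a pseudocount of 1 FPKM added to each, which understates the change of low genes. Here 2-fold means 1 or more, or -1 or less, on that scale, and this limit stood in for a test. Of the 73 members, 4 were at least 2-fold higher in resistant cells (5.48%), where 3.28% of all 12405 compared genes were. They were SLC16A8, SLC22A31, SLC22A4 and SLC9A2. At least 2-fold lower were 3 members (4.11%), where 2.70% of all compared genes were. They were SLC2A4, SLC2A13 and SLC7A2. In either direction 7 members passed (9.59%), where 5.98% of all compared genes did. Counts of 4 and 3 are too small to set the members apart from these shares.

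The median log2 ratio over the members was -0.08, and over all compared genes -0.04. Above 0 lay 31 members and below 0 lay 42. Log2 ratios within 0.5 of 0 were found for 65.8% of members and for 82.7% of all compared genes. The members' quartiles were -0.29 and 0.23, where those of all compared genes were -0.22 and 0.16. The width was also compared within classes of level. Under a mean of 5 FPKM the median size of the log2 ratio, sign aside, was 0.44 over 19 members and 0.32 over 2642 genes. Among genes with a mean of 5 to 20 FPKM it was 0.26 over 36 members and 0.19 over 4823 genes. At 20 FPKM and above it was 0.28 over 18 members and 0.16 over 4940 genes. Over the members, Pearson's r between the libraries on the log2 scale was 0.911, and Spearman's rho was 0.861, across genes that are not independent of each other.

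**Figure D1:**
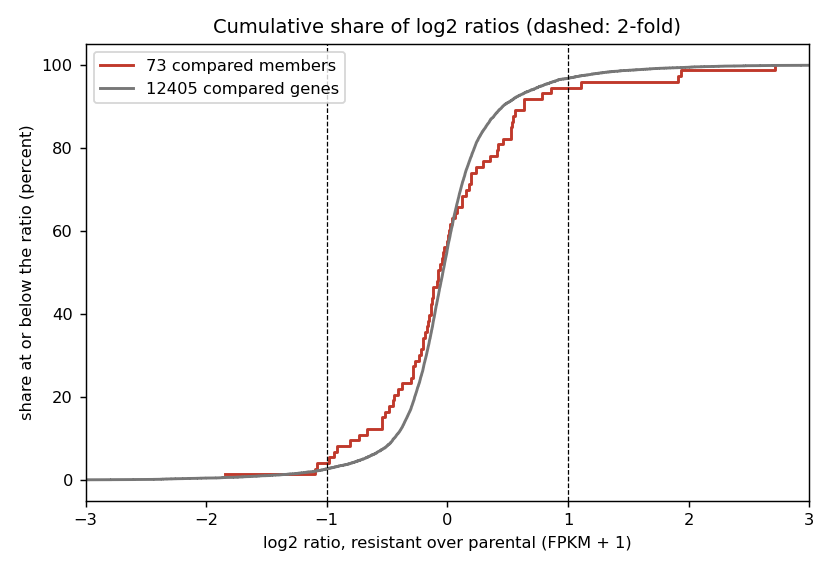
Cumulative share (percent) of log2 ratios, resistant over parental, for the 73 compared members (red) and all 12405 compared genes (grey), with 2-fold dashed. The red line is flatter than the grey line on both sides of 0, with 65.8% of members and 82.7% of genes within 0.5 of 0.

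The largest log2 ratio was that of SLC16A8, a monocarboxylate carrier known from the retinal pigment epithelium. It had 16.4 FPKM in resistant and 1.65 FPKM in parental cells (log2 ratio 2.72). Its order among the 73 members was 21 in resistant and 68 in parental cells. This value came from a locus without an assigned strand, and its resistant to parental ratio was that of 10 to 1 reads, after allowing for the worth of 1 read in each library. Multiples of these numbers give the same ratio, so how many reads lie behind it is not known. A second SLC16A8 locus, assigned to the annotated strand, had 1.496 FPKM in resistant and 0.525 FPKM in parental cells (0.71), which lay within 2-fold. The gene is on the minus strand of chromosome 22, from 38078134 to 38084093 (hg38). Its neighbour BAIAP2L2, a gene of epithelial membrane folding, had 3.09 FPKM in resistant and 0.704 FPKM in parental cells (1.26). The 10 compared genes around SLC16A8, 5 on each side, had a median log2 ratio of 0.18.

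SLC22A4 and SLC22A5 are neighbours and paralogues on chromosome 5, and the values of the loci taken for them lay on opposite sides of 0. SLC22A4 encodes a carrier of ergothioneine and organic cations, and SLC22A5 encodes the sodium-coupled importer of carnitine. SLC22A4 had 2.75 FPKM in resistant cells and was listed at 0 in parental cells, so its log2 ratio of 1.91 rests on the pseudocount. SLC22A5 had 7.08 FPKM in resistant and 10.3 FPKM in parental cells (-0.48). A second SLC22A5 locus, without a strand, lay above 0, with 2.65 FPKM in resistant and 1.99 FPKM in parental cells (0.29). With loci of a name summed, the log2 ratio of SLC22A5 was -0.31. The opposite strand at SLC22A4 holds P4HA2, which had 14.53 FPKM in resistant and 13.6 FPKM in parental cells (0.09). Both SLC22A4 and SLC22A5 lie on the plus strand, from 132294443 to 132344206 and from 132369752 to 132395614. With a pseudocount of 5 the log2 ratio of SLC22A4 was 0.63.

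The promoter windows of 4 members are printed from RefSeq (GRCh38.p14), 250 bases before to 50 after the gene's start, read in the direction of the gene. Those of SLC22A4 and SLC22A5 are shown because the genes adjoin and the loci taken for them lie apart in value. SLC16A8 had the highest log2 ratio, and SLC2A13 was the most abundant member past 2-fold. Capitals mark the E-box CACGTG. The windows are chr5:132294144-132294443 (plus strand) for SLC22A4, chr5:132369460-132369759 (plus strand) for SLC22A5, chr22:38084135-38084434 (minus strand) for SLC16A8 and chr12:40106032-40106331 (minus strand) for SLC2A13.
SLC22A4: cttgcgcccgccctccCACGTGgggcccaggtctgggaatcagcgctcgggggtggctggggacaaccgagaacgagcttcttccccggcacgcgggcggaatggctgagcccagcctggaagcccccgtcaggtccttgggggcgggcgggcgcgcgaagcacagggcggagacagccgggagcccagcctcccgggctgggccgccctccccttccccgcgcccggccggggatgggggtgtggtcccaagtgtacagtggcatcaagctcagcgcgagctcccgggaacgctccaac
SLC22A5: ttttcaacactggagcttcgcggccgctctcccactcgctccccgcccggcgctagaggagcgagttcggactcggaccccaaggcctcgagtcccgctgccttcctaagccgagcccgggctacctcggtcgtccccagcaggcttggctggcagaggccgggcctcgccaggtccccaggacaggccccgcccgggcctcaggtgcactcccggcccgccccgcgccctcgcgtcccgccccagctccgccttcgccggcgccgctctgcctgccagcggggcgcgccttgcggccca
SLC16A8: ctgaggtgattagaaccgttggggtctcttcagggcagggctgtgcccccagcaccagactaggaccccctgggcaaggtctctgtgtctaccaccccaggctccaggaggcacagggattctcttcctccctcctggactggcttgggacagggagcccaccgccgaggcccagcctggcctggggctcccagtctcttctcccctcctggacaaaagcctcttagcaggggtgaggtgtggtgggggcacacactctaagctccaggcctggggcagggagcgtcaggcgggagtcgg
SLC2A13: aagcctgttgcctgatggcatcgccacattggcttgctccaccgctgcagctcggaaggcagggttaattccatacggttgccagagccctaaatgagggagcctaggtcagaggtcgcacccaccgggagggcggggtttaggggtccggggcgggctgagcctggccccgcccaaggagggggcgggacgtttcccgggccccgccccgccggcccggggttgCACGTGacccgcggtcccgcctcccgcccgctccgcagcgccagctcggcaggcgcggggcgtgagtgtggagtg
CpG dinucleotides numbered 29 in the SLC22A4 window, 36 in SLC22A5, 6 in SLC16A8 and 29 in SLC2A13. The median over 27305 promoters, taken whether or not their genes were expressed, was 14. SLC22A4, which was higher, and SLC2A13, which was lower, each held 1 E-box.

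Promoters of 58 of the 73 compared members were matched in RefSeq by symbol. Among the 58 were the 4 members at least 2-fold higher and 1 of the 3 lower, SLC2A13. The promoters of SLC2A4 and SLC7A2 were not matched and so were not searched. The 58 promoters had a median GC content of 69.5%, against 58.3% over all promoters of that length, and a median of 28 CpG dinucleotides. The 2 sets are unlike, here and for the motifs below. Members had at least 1 FPKM in either library, while all promoters were taken whether or not their genes were expressed. A comparison with promoters of expressed genes only was not made. Letters were searched on both strands, overlaps included. The E-box CACGTG was in 7 member promoters (12.1%) and in 7.43% of all promoters. Besides SLC22A4 and SLC2A13, these were SLC16A9, SLC9A5, SLC20A1, SLC7A5 and SLC6A16, whose log2 ratios ran from -0.29 to 0.63. The antioxidant response core TGACNNNGC was in 8 (13.8%), against 13.6% of all promoters. These were SLC7A6, SLC18A2, SLC17A5, SLC19A1, SLC7A1, SLC20A1, SLC7A5 and SLC15A4, none of them past 2-fold. The amino acid response core TGATGCAA was in none of the 58 and in 0.923% of all promoters. SLC20A1 and SLC7A5 held both an E-box and the antioxidant core.

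SLC22A31, a little studied member of the same family, had 6.96 FPKM in resistant and 1.07 FPKM in parental cells (1.94). This locus had no strand, and its ratio was that of 13 to 2 reads. The strand-assigned SLC22A31 locus had 4.64 FPKM in resistant and 2.64 FPKM in parental cells (0.63), which lay within 2-fold, and a pseudocount of 5 gave 0.98 for the locus without a strand. In family 22 the most abundant member was SLC22A17, a receptor for the iron-binding protein lipocalin, with 13.9 FPKM in resistant and 17.3 FPKM in parental cells (-0.30). SLC22A23 had 1.69 FPKM in resistant and 1.95 FPKM in parental cells (-0.14).

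**Figure D2:**
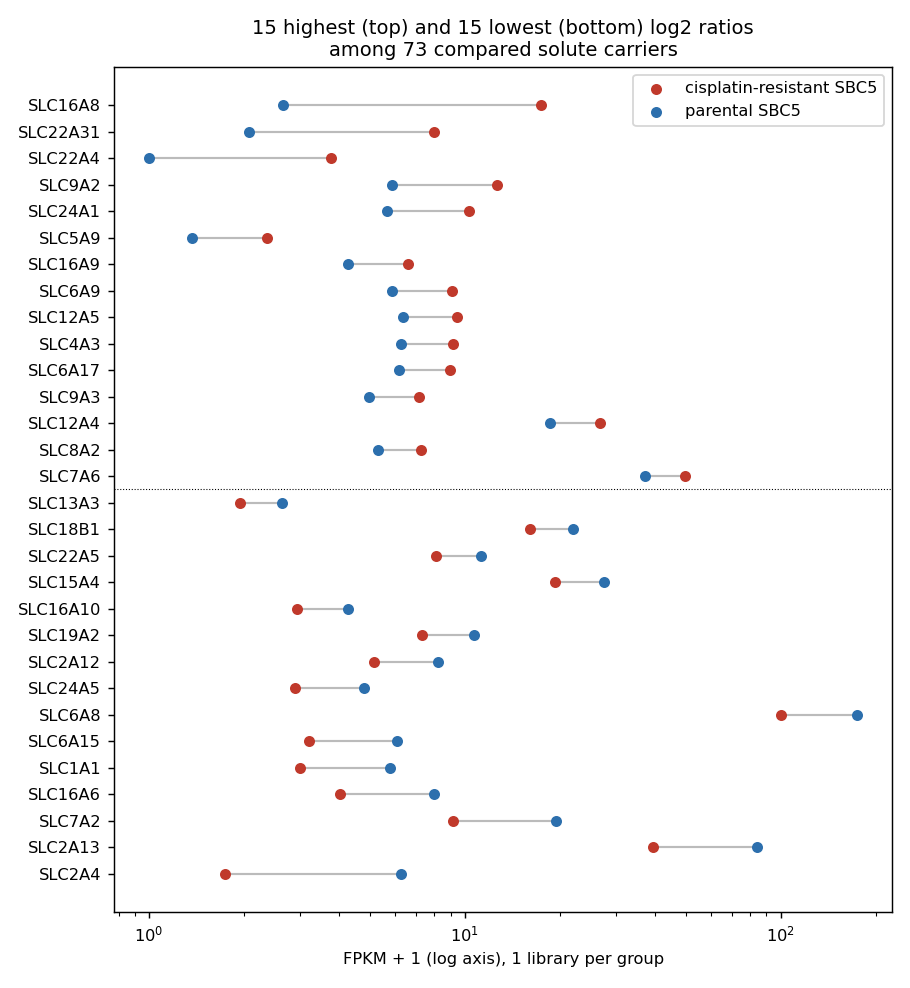
FPKM plus 1 (log axis) of the 15 members with the highest and the 15 with the lowest log2 ratios, red for the resistant and blue for the parental library, 1 library each. SLC16A8 stands at 16.4 against 1.65 FPKM at the top and SLC2A4 at 0.742 against 5.25 FPKM at the bottom.

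The hexose carriers of family 2 had a median of -0.67 over 5 members, the lowest among families of 3 or more. At least 2-fold lower were 2 of them, where 2.70% of all compared genes were. The family was singled out by these same values, and a count of 2 is too small to set it apart from that share. SLC2A4 encodes the glucose carrier that insulin brings to the surface of muscle and fat cells. It had 0.742 FPKM in resistant and 5.25 FPKM in parental cells (-1.84), and was the lowest of the 73 members in the resistant library. The gene is on the plus strand of chromosome 17, from 7281667 to 7288257, and overlaps YBX2 on the minus strand. YBX2, a gene of germ cell RNA storage, had 1.93 FPKM in resistant and 9.67 FPKM in parental cells (-1.87). Reads of these overlapping genes cannot be told apart unless the counting used strand, which is not stated, so the SLC2A4 value is uncertain. With a pseudocount of 5 the log2 ratio of SLC2A4 was -0.84.

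SLC2A13 encodes a proton-coupled importer of myo-inositol, the sugar alcohol that serves as an osmolyte and as the base of phosphoinositides. It had 38.5 FPKM in resistant and 83.3 FPKM in parental cells (-1.09). Its log2 ratio lay between -1.18 and -1.02 under the 9 alternatives to the main processing that kept the 2-fold limit. It remained past 2-fold in each, but the filters and the choice of loci could not change it. SLC2A13 has 1 locus, with an assigned strand and a level above both filters. The gene is on the minus strand of chromosome 12, from 39755021 to 40106089, and the 10 genes around it had a median of -0.21, with 2 of them at least 2-fold lower. SLC2A12, another glucose carrier, had 4.16 FPKM in resistant and 7.20 FPKM in parental cells (-0.67). TBPL1, on the opposite strand there, had 11.02 FPKM in resistant and 15.5 FPKM in parental cells (-0.45). Reads of SLC2A12 and TBPL1 cannot be told apart without strand, and the family median is the value of SLC2A12. SLC2A8, which sits in intracellular membranes, had 6.98 FPKM in resistant and 7.998 FPKM in parental cells (-0.17). SLC2A6, a lysosomal carrier, had 5.76 and 6.36 FPKM in the same order (-0.12). All 5 lay below 0 under each scaling tried, and 4 of 5 did with loci of a name summed, which put SLC2A8 above 0. Of all compared genes, 6903 of 12405 lay below 0 on the deposited scaling.

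The sodium-coupled carriers of family 5 had a median of -0.04 over 6 members, which turned to 0.02 under 1 scaling, and none passed 2-fold. SLC5A3 encodes the sodium-coupled importer of myo-inositol, which cells induce under osmotic stress. Its locus had the highest level among the members in both libraries, with 187 FPKM in resistant and 243 FPKM in parental cells (-0.37). Its locus was joined with MRPS6, a mitochondrial ribosomal gene that spans it on the same strand, so the value covers both genes and does not give the level of SLC5A3 alone. SLC5A6, the importer of biotin and pantothenate, had 43.6 FPKM in resistant and 44.7 FPKM in parental cells (-0.03). SLC5A2 encodes the glucose importer of the kidney tubule. It had 33.9 FPKM in resistant and 39.2 FPKM in parental cells (-0.20), and overlaps C16orf58 on the opposite strand, which had 60.3 FPKM in resistant and 67.1 FPKM in parental cells. SLC5A9, a carrier of mannose and glucose, had 1.36 FPKM in resistant and 0.371 FPKM in parental cells (0.78), a ratio of 11 to 3 reads. SLC5A10 had 8.36 FPKM in resistant and 8.32 FPKM in parental cells. SLC5A4 had 1.88 FPKM in resistant and 1.97 FPKM in parental cells, but its locus lay on the strand opposite to the annotated one, the only such case among the 68 strand-assigned members.

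**Figure D3:**
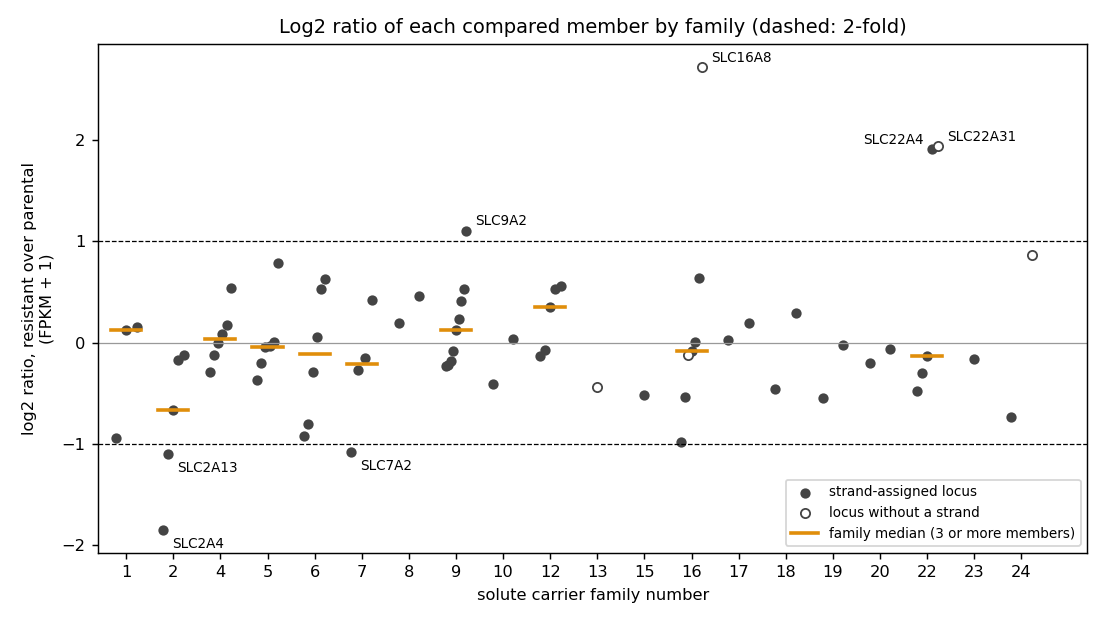
Log2 ratio of each of the 73 compared members (vertical axis) by solute carrier family (horizontal axis), filled for loci with an assigned strand and open for loci without one, with family medians for families of 3 or more members and 2-fold dashed. SLC16A8 and SLC22A31 are open points past 2-fold, and family 2 lies below 0 throughout with a median of -0.67.

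Amino acid carriers numbered 13 over families 1, 6 and 7, with a median of -0.15, 6 above and 7 below 0, and 1 past 2-fold. Their summed level was 440 FPKM in resistant and 539 FPKM in parental cells. Of these sums SLC6A8, a creatine importer, gave 98.9 and 173 FPKM in the same order. Most of the gap thus came from this 1 member, whose value is uncertain, as described below. SLC7A2, an importer of arginine and lysine, was the member past 2-fold, with 8.19 FPKM in resistant and 18.4 FPKM in parental cells (-1.08, and -0.83 with a pseudocount of 5). SLC7A1, which carries the same cationic amino acids and is the more widely expressed, had 99.1 FPKM in resistant and 110.3 FPKM in parental cells (-0.15). SLC7A5, the light chain of the main importer of large neutral amino acids, had 94.1 FPKM in resistant and 113.5 FPKM in parental cells (-0.27). SLC7A6, the light chain of an exchanger of cationic for neutral amino acids, had 48.8 FPKM in resistant and 36.3 FPKM in parental cells (0.42). The 4 members of family 7 thus lay on both sides of 0.

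SLC6A8, the importer of creatine, was the second most abundant member in parental cells and the fourth in resistant cells. It had 98.9 FPKM in resistant and 173 FPKM in parental cells (-0.80). SLC6A10P, a pseudogene copy of SLC6A8 on another chromosome, went the other way, with 86.7 FPKM in resistant and 50.3 FPKM in parental cells (0.77). Reads of near-identical copies can be split between them, so the SLC6A8 value is uncertain. Summed, the pair had 186 FPKM in resistant and 224 FPKM in parental cells (-0.27). SLC6A15, a neutral amino acid carrier of neurons, had 2.22 FPKM in resistant and 5.08 FPKM in parental cells (-0.92). SLC6A9, a glycine importer, had 8.10 FPKM in resistant and 4.87 FPKM in parental cells (0.63). CCDC24, on the opposite strand there, had 10.7 FPKM in resistant and 6.72 FPKM in parental cells (0.60), so the 2 cannot be told apart without strand. SLC6A17, a carrier of synaptic vesicles, had 7.96 FPKM in resistant and 5.19 FPKM in parental cells (0.53). SLC6A6, the taurine importer, had 3.98 FPKM in resistant and 3.78 FPKM in parental cells, and SLC6A16 had 5.61 and 7.07 FPKM. Log2 ratios of family 6 ran from -0.92 to 0.63.

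In family 1, SLC1A1 imports glutamate and cysteine. It had 2.01 FPKM in resistant and 4.78 FPKM in parental cells (-0.94), and passed 2-fold with a pseudocount of 0.1 (-1.21). SLC1A5, the glutamine exchanger, was the most abundant of the family, with 52.3 FPKM in resistant and 48.0 FPKM in parental cells (0.12). SLC1A4, an exchanger of alanine, serine and cysteine, had 9.17 FPKM in resistant and 8.12 FPKM in parental cells (0.16).

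**Figure D4:**
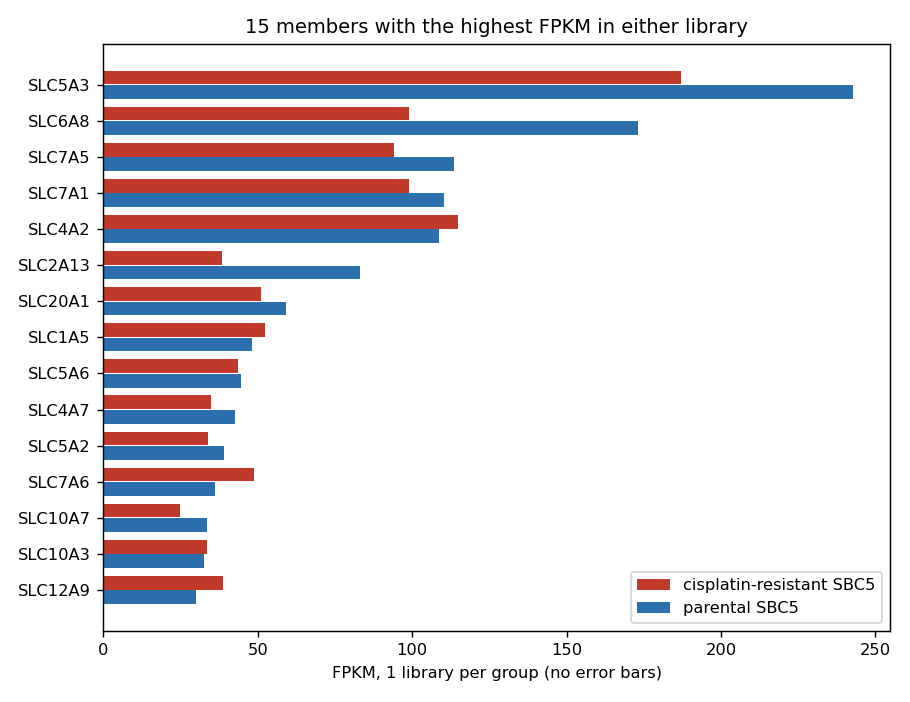
FPKM (horizontal axis from 0) of the 15 members with the highest level in either library, red for resistant above blue for parental, 1 library each and hence no error bars. The joined locus of MRPS6 and SLC5A3 leads in both, and SLC6A8 and SLC2A13 show the widest gaps among the others, at 98.9 against 173 FPKM and 38.5 against 83.3 FPKM.

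Levels were led by few members. The 10 most abundant held 57.8% of the members' summed FPKM in resistant and 62.9% in parental cells, and 8 of the 10 were shared. The sum over members was 1435 FPKM in resistant and 1631 FPKM in parental cells, and the median level was 8.10 and 7.20 FPKM in the same order. At least 100 FPKM was reached by 2 members in resistant cells, SLC4A2 and the joined locus of SLC5A3 and MRPS6, and by 5 in parental cells. This contrast depends on the limit, since SLC7A1 (99.1 FPKM) and SLC6A8 (98.9 FPKM) lay just under it in resistant cells. At least 50 FPKM was reached by 7 members in each library, and at least 10 FPKM by 28 in each. SLC20A1, a sodium-phosphate importer, had 51.2 FPKM in resistant and 59.1 FPKM in parental cells (-0.20). SLC20A2, its paralogue, had 11.5 FPKM in resistant and 11.98 FPKM in parental cells (-0.06). With 1 library per group, neighbours in the order of levels cannot be told apart.

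Carriers that set pH, in families 4 and 9, numbered 15 and had a median of 0.08, which came to -0.003 with equal library sums. SLC9A2, a sodium-proton exchanger of epithelia, was the member past 2-fold, with 11.7 FPKM in resistant and 4.89 FPKM in parental cells (1.10, and 0.75 with a pseudocount of 5). It has 1 locus, on the annotated strand, on chromosome 2 from 102619707 to 102711318. The 10 genes around it had a median of 0.09, and 1 of them was at least 2-fold higher. SLC9A3, the exchanger of gut and kidney, had 6.15 FPKM in resistant and 3.96 FPKM in parental cells (0.53), and SLC9A5 had 8.97 and 6.51 FPKM in the same order (0.41). SLC9A7, SLC9A8, SLC9B1 and SLC9B2 had log2 ratios from -0.22 to 0.23.

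Among bicarbonate carriers, SLC4A2, a chloride-bicarbonate exchanger, had 114.9 FPKM in resistant and 108.6 FPKM in parental cells (0.08). SLC4A7, a sodium-bicarbonate importer, had 34.9 FPKM in resistant and 42.7 FPKM in parental cells (-0.29). SLC4A3, a chloride-bicarbonate exchanger of heart and brain, had 8.17 FPKM in resistant and 5.29 FPKM in parental cells (0.54). The other 3 of the family, SLC4A5, SLC4A8 and SLC4A11, had log2 ratios from -0.12 to 0.18.

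The cation-chloride cotransporters of family 12 had the highest family median among families of 3 or more, 0.36 over 5 members, with 3 above 0 and none past 2-fold. The median was between 0.27 and 0.42 under the alternatives. SLC12A5, a potassium-chloride exporter of neurons, had 8.42 FPKM in resistant and 5.38 FPKM in parental cells (0.56), a ratio of 11 to 7 reads that its second locus shared. SLC12A4, the widely expressed potassium-chloride exporter, had 25.8 FPKM in resistant and 17.6 FPKM in parental cells (0.53). It overlaps LCAT on the same strand, which had 5.54 FPKM in resistant and 2.81 FPKM in parental cells (0.78). SLC12A9, the most abundant of the family, had 38.9 FPKM in resistant and 30.1 FPKM in parental cells (0.36). SLC12A2, the sodium-potassium-chloride importer, had 13.9 FPKM in resistant and 14.7 FPKM in parental cells (-0.08). WNK3, a kinase that activates importers and inhibits exporters of this family, had 6.44 FPKM in resistant and 14.9 FPKM in parental cells (-1.09).

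SLC9A5, SLC12A4 and SLC7A6 lie near each other on chromosome 16, from 67237683 to 68301823, and had log2 ratios of 0.41, 0.53 and 0.42. The 10 genes around each had medians of -0.12, 0.02 and -0.02. Of the 6 members on chromosome 16, 4 lay above 0. A second SLC9A5 locus, without a strand, lay below 0, with 1.89 FPKM in resistant and 2.28 FPKM in parental cells (-0.18). FHOD1, which overlaps SLC9A5 on the opposite strand, had 30.6 FPKM in resistant and 34.7 FPKM in parental cells (-0.18).

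Calcium exchangers of families 8 and 24 had no member past 2-fold. SLC8A2, a sodium-calcium exchanger of neurons, had 6.28 FPKM in resistant and 4.30 FPKM in parental cells (0.46), and the mitochondrial SLC8B1 had 7.70 and 6.60 FPKM in the same order (0.20). SLC24A1, an exchanger of rod photoreceptors, changed side with the locus taken. Its most abundant locus had no strand and had 9.31 FPKM in resistant and 4.67 FPKM in parental cells (0.86), a ratio of 2 to 1 reads. Its strand-assigned locus had 5.03 FPKM in resistant and 8.19 FPKM in parental cells (-0.61). SLC24A5, an exchanger of pigment granules, had 1.89 FPKM in resistant and 3.80 FPKM in parental cells (-0.73), a ratio of 1 to 2 reads. Its 3 further loci also lay below 0, and MYEF2, which overlaps it on the opposite strand, had 19.7 FPKM in resistant and 25.1 FPKM in parental cells (-0.33).

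Monocarboxylate carriers of family 16 had log2 ratios from -0.98 to 2.72 over 7 members, with SLC16A8 at the top from a locus without a strand. At the low end SLC16A6 had 3.03 FPKM in resistant and 6.98 FPKM in parental cells (-0.98). It came past 2-fold with equal library sums (-1.05) and with a pseudocount of 0.1 (-1.18). ARSG, on the opposite strand at SLC16A6, had 1.41 FPKM in resistant and 2.81 FPKM in parental cells (-0.66). SLC16A9 had 5.61 FPKM in resistant and 3.26 FPKM in parental cells (0.63), and 3 of the 10 genes around it were at least 2-fold higher. SLC16A10, a carrier of aromatic amino acids, had 1.93 FPKM in resistant and 3.25 FPKM in parental cells (-0.54). SLC16A13 had 3.93 FPKM in resistant and 3.89 FPKM in parental cells, and SLC16A4, with 5 loci on both sides of 0, had 1.61 and 1.85 FPKM in the same order.

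The remaining families had 1 or 2 members each and none past 2-fold. SLC15A4, a lysosomal carrier of histidine and peptides, had 18.2 FPKM in resistant and 26.5 FPKM in parental cells (-0.52). SLC19A2, the thiamine importer, had 6.32 FPKM in resistant and 9.66 FPKM in parental cells (-0.54), while SLC19A1, the reduced folate carrier that also imports antifolate drugs, had 23.03 and 23.5 FPKM in the same order (-0.03). SLC23A2, an importer of ascorbic acid, had 8.49 FPKM in resistant and 9.59 FPKM in parental cells (-0.16). SLC18B1, a vesicular carrier of polyamines, had 15.02 FPKM in resistant and 20.95 FPKM in parental cells (-0.45), and SLC18A2, the vesicular carrier of monoamines, had 3.30 and 2.498 FPKM in the same order (0.30). SLC17A5, a lysosomal exporter of sialic acid, had 16.4 FPKM in resistant and 14.2 FPKM in parental cells (0.19), and SLC17A7, a vesicular glutamate carrier, had 5.20 and 5.10 FPKM. SLC10A7 of the bile acid family had 24.95 FPKM in resistant and 33.5 FPKM in parental cells (-0.41), and SLC10A3 had 33.5 and 32.5 FPKM in the same order (0.04). SLC13A3, a dicarboxylate importer, had 0.946 FPKM in resistant and 1.64 FPKM in parental cells (-0.44) in a locus without a strand.

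A compared gene overlapped 25 of the 73 members on the opposite strand and 4 on the same strand. Several loci bore the name of 15 members. Of 25 further loci of at least 1 FPKM in either library, 15 lay on the same side of 0 as the locus that stood for the name and 10 on the other. Of the 26 loci without a strand among them, 24 had a resistant to parental ratio of whole numbers up to 20, after allowing for the worth of 1 read. Of the 16 strand-assigned loci, 4 did. Over the whole table the share was also taken by level. For 7591 loci below 5 FPKM in each library, leaving out 0, it was 53.0%, and for 1025 loci at 100 FPKM or more in each it was 5.46%. SLC2A8 showed the spread within a name: 1 of its loci without a strand had 3.41 FPKM in resistant and 0.456 FPKM in parental cells (1.599, 15 to 2 reads), where the strand-assigned locus had -0.17. Loci without a strand stood for 5 of the 73 members, 2 of the 4 that were at least 2-fold higher and none of the 3 that were lower. They stood for 409 of the 12405 compared genes, of which 68 were higher and 39 lower by the same limit.

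**Figure D5:**
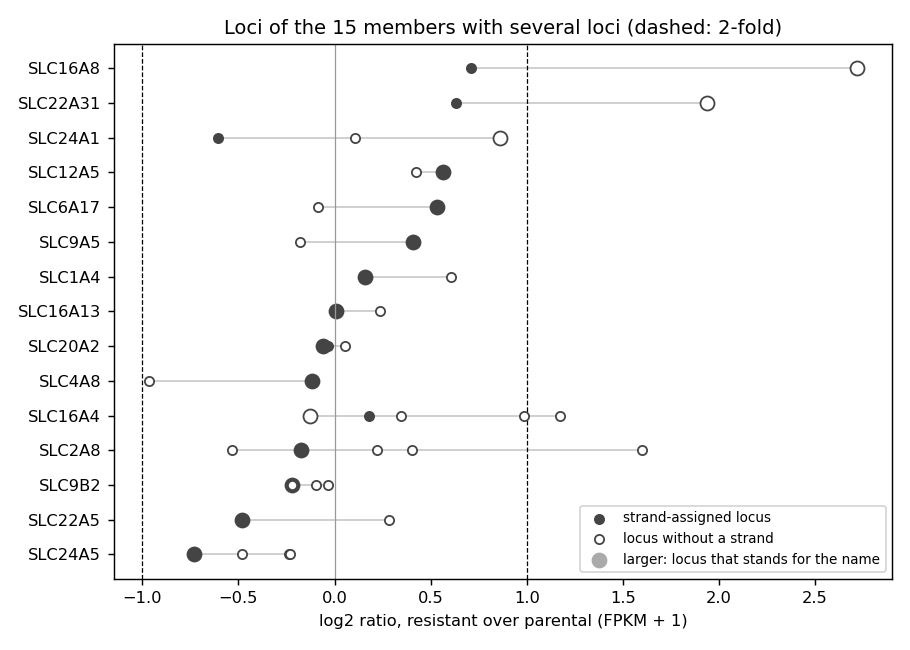
Log2 ratio (horizontal axis) of every locus of the 15 members with several loci, filled for strand-assigned and open for loci without a strand, larger for the locus that stands for the name. The larger points of SLC16A8 and SLC22A31 are open and lie past 2-fold at 2.72 and 1.94, and their filled points lie at 0.71 and 0.63.

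Proteins that drive, carry or anchor solute carriers were examined from a list of 55 genes, of which 39 were compared. None was at least 2-fold higher, where 3.28% of all 12405 compared genes were. At least 2-fold lower were 2, WNK3 and NEDD4, where 2.70% of all compared genes were. A count of 2 is too small to set the list apart from that share. NEDD4, a ubiquitin ligase of membrane proteins, had 23.2 FPKM in resistant and 55.7 FPKM in parental cells (-1.23), while its relative NEDD4L had 15.9 and 20.5 FPKM in the same order (-0.35). The list median was -0.10, with 29 of 39 below 0. Over all compared genes the median was -0.04, with 6903 of 12405 below 0. Of the sodium pump, the subunit ATP1B3 had 70.2 FPKM in resistant and 73.4 FPKM in parental cells (-0.06). The 9 compared genes of the membrane part of the proton pump had log2 ratios from -0.40 to 0.16. The monocarboxylate carrier chaperones BSG and EMB had 0.10 and 0.08, beside 312.9 FPKM in resistant and 292 FPKM in parental cells for BSG. SLC9A3R2, an anchor of SLC9A3, had 29.2 FPKM in resistant and 17.96 FPKM in parental cells (0.67), and its relative SLC9A3R1 had 20.1 and 24.9 FPKM (-0.29).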

How the data were processed

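Polyadenylated RNA of 1 cisplatin-resistant and 1 parental culture was made into stranded libraries from 500 ng of RNA, per the labels' protocols. The deposited values are FPKM for 19217 loci, per the file headers, with a column for each library. TopHat2 (unversioned) and hg38 were used, per the submitters' processing notes. Which program, annotation and strand setting gave the FPKM is not stated. Each column was assigned from its sample's description.

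Loci with no name (2919) or a name turned into a date (23) were left out. A name with several loci was represented by its most abundant one on average. Genes reaching 1 FPKM in a library were compared by the log2 ratio with a pseudocount of 1, on the deposited scaling, over all 12405 genes. With 1 library per group no p-value was computed, and depth could not be recovered. The strand of a locus was inferred from its place in the order of the table, where each chromosome holds 3 parts. Of 11744 loci in the 2 stranded parts with an annotated strand, 11589 lay on it, and 6311 loci were in the part of no strand. The worth of 1 read differed between the libraries by a resistant to parental factor of 0.996, and ratios of whole numbers up to 20 were matched to a relative tolerance of 2e-05. Such a ratio does not give the number of reads, since multiples give the same ratio. Positions came from GENCODE release 29, of the same build as hg38, and promoters from RefSeq.

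The members, the family and partner lists and the limit were chosen with earlier results of these data known. Named were all members past 2-fold, the 15 highest and lowest, the 10 most abundant in either library, the most abundant of each family with 3 or more compared members and those within 0.1 of the limit, 41 in all, with partners past 2-fold. Other members and genes given with values were added after their values were seen. Alternatives were pseudocounts of 0.1 and 5, no filter and one of 5 FPKM, scaling to an equal sum with and without MTRNR2L loci and by the median ratio, summed loci, strand-assigned loci and a 4-fold limit. Protein sequences were not analysed here, and the values of some genes are not reported here. The procedure was tested on simulated data. The tools were pandas 2.3.3, matplotlib 3.10.9 and NumPy 2.4.6 under Python 3.11.15.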

Additional observations from a re-analysis of the deposited data

How the results depend on the processing

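The 4 higher and 3 lower members became 5 and 6 with a pseudocount of 0.1, 1 and 1 with a pseudocount of 5, and 1 and 0 with a 4-fold limit. With strand-assigned loci only, 2 members were higher, where SLC16A8 (0.71) and SLC22A31 (0.63) came within 2-fold, and the same 3 were lower. With a pseudocount of 5, the 5 members SLC22A31 (0.98), SLC22A4 (0.63), SLC9A2 (0.75), SLC7A2 (-0.83) and SLC2A4 (-0.84) lay within 2-fold, while SLC16A8 and SLC2A13 remained past it. A larger pseudocount shrinks the ratios of low genes by its construction. Over all compared genes, 407 were higher and 335 lower, against 614 and 478 with a pseudocount of 0.1 and 142 and 136 with 5. The median over members was -0.15 with equal sums and -0.012 with equal sums without MTRNR2L loci, against -0.08 on the deposited scaling. No member past 2-fold changed sign under any alternative run, but most alternatives could not have changed one. Pseudocounts, filters and the limit leave the sign as it is, and scalings by 0.943 to 1.048 were too small to change it. Summed or strand-assigned loci could have done so only for SLC16A8 and SLC22A31, which have several loci. Other counts of members were within 1.5 times the main count. No paired analysis was possible because each group has 1 library, and leaving out a library was not possible for the same reason. Depth limits what low members show, since the reads behind an FPKM are unknown and ratios of small whole numbers were common among low loci.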
